A study of Mus musculus with 12 samples.

Results

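Nqo1, Gclm, Gclc, Slc7a11 and Hmox1 are target genes of Nrf2, the transcription factor that drives the antioxidant response, and their transcripts were followed in macrophages with and without Atf3. The members were 5 transcript probe sets given by Ensembl transcript ID, and all 5 were found among the 74007 probe sets of the table. They were ENSMUST00000005548 for Hmox1, ENSMUST00000003947 for Nqo1, ENSMUST00000029769 for Gclm, ENSMUST00000034905 for Gclc and ENSMUST00000029297 for Slc7a11. The gene names come with the choice of members, since the reference tables used here pair no Ensembl transcript ID with a name.

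Nrf2 is normally held in the cytoplasm by Keap1, which marks it for degradation. Electrophiles and oxidised lipids modify Keap1, Nrf2 then enters the nucleus, pairs with small Maf proteins and binds antioxidant response elements of its target genes. In macrophages that take up oxidised low-density lipoprotein (oxLDL), the particle brings both sterols and oxidised lipids into the cell, and Nrf2 targets serve the defence against the latter. Atf3 is a stress-induced transcription factor of the ATF/CREB family.

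The cells were grown from marrow of the femurs of 12 female C57BL/6J-background mice fed normal chow, aged 8 to 12 weeks, 6 of them wild type (WT) and 6 Atf3-/- (KO), with recombinant human M-CSF at 50 ng/mL. In each genotype, cells of 3 mice stayed unstimulated and cells of 3 other mice received human LDL oxidised with CuSO4 at 25 ug/mL from day 7 for 24 h. Every group therefore shared the M-CSF culture, and the 4 groups differed in genotype and oxLDL alone per the labels. All cells of an Atf3-/- mouse carry the genotype, and the allele is not described in the sources used here. RNA of each mouse's cells went onto 1 Affymetrix Mouse Exon 1.0 ST array, and the values are log2 levels. The levels of Atf3 and of macrophage markers were not analysed here, because no ID could be paired with their names. In bulk RNA, fewer cells of a type and less RNA per cell cannot be told apart.

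Array medians lay between 8.42 and 8.57. WT arrays varied more than KO arrays, with a median SD within groups of 0.23 in WT and 0.06 in KO over the 39620 probe sets tested. A pair of WT arrays stood apart. Unstimulated WT replicate 1 had a mean correlation across probe sets of 0.946 with its own group and 0.954 with the unstimulated KO arrays, and WT oxLDL replicate 3 was the lowest of its group in 77.6% of probe sets. Results are given without these arrays where that changes a call. Since limma shares its estimate of spread among all arrays fitted, results from the 6 arrays of a comparison alone stand beside those from all 12.

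The regulatory sequence before the start site was read for the members present in the RefSeq promoter table, Nqo1, Gclm and Slc7a11, on build GRCm38.p6. The 250 bases before the start of Gclm and of Slc7a11 are shown because each holds a match to a stress-response element, and both transcripts lead the response described below. In the Gclm sequence, at chr3:122245307-122245556 on the plus strand, the capitals mark the match to the antioxidant response element TGACNNNGC, which lies on the minus strand from 134 to 126 bases before the start. In the Slc7a11 sequence, at chr3:50443614-50443863 on the minus strand, the capitals mark a pair of matches to the amino acid response element TGATGCAAA, in opposite orientations, from 66 to 58 and from 48 to 40 bases before the start.
Gclm promoter: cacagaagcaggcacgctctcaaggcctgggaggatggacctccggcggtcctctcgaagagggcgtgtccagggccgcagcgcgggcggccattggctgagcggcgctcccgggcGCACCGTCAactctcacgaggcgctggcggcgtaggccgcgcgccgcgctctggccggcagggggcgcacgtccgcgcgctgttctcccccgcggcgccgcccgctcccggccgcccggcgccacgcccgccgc
Slc7a11 promoter: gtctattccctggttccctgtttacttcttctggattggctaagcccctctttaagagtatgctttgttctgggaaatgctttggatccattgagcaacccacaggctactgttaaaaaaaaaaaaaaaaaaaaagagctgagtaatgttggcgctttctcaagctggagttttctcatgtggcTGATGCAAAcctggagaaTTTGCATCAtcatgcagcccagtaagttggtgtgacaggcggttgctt

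The antioxidant response element, searched on both strands, was present in 10.2% of the 32851 promoters of the same length and in 1 of the 3 member promoters, that of Gclm. It overlaps in part with the AP-1 element TGANTCA, which 6.75% of promoters held, and with the CRE TGACGTCA, held by 1.55%. Neither of these was found in the 3 member promoters. In mouse Slc7a11 the amino acid response elements are known to bind Atf4, and 0.225% of promoters held that element. It was searched for after the sequences had been seen. A match is only a description of these letters, and elements outside the 250 bases were not searched.

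All 5 transcripts had higher mean levels with oxLDL in both genotypes. The log2 changes lay between 0.55 and 1.75 in WT and between 0.61 and 1.74 in KO, with medians of 0.68 and 0.85. Over all 74007 probe sets the medians were 0.02 and 0.01. With no filter on low levels, 4 of 5 passed as higher in WT in limma (Benjamini-Hochberg adjusted p under 0.05), where 0.985% of all probe sets did, and 3 of 5 in KO, where 0.254% did. With no filter and the 6 arrays of the comparison alone, 0 of 5 passed in WT, where 0.00405% of probe sets were called higher, and 5 of 5 in KO, where 6.41% were. With no filter, the fit over all 4 groups called only 1 of 5 in KO, Gclm, when certain single KO arrays were left out. These were any 1 of the 3 unstimulated KO arrays, KO oxLDL replicate 1 and KO oxLDL replicate 3. Such fits called 0.0203% to 0.0608% of all probe sets higher. The filter required a level above the array median on at least 3 of the 12 arrays. It left 2.06% of 39620 probe sets called higher in WT and 0.603% in KO. Hmox1, Gclm and Gclc passed this filter on every array, Slc7a11 only through its 6 oxLDL arrays, and Nqo1 did not pass it, so its tests come from the unfiltered fit. The oxLDL arrays lay wholly above the unstimulated ones for 4 of 5 in WT and 5 of 5 in KO, and for 6.22% and 17.2% of all probe sets.

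**Figure D1:**
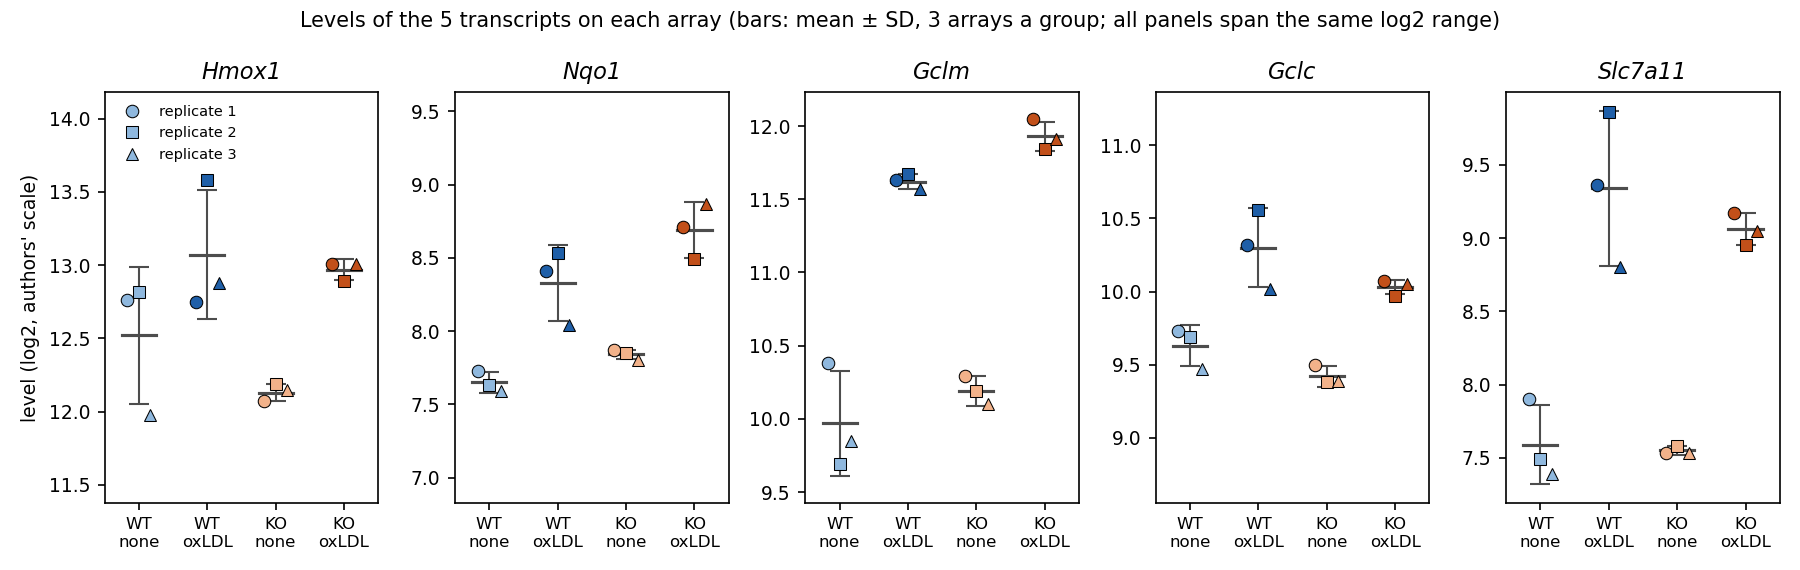
Level of each transcript on each of the 12 arrays (y axis, log2 on the authors' scale; x axis, the 4 groups; markers, replicates 1 to 3; bars, mean ± SD of 3 arrays). The oxLDL arrays lie above the unstimulated ones of the same genotype for every transcript except Hmox1 in WT, where WT oxLDL replicate 1 at 12.75 lies below unstimulated replicate 2 at 12.82.

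Slc7a11 encodes the light chain of the cystine-glutamate antiporter, which imports the cystine from which cells make glutathione. Its log2 level on the unstimulated WT arrays was 7.90, 7.49 and 7.39, and with oxLDL it was 9.36, 9.86 and 8.80. On the KO arrays it was 7.53, 7.58 and 7.53 without oxLDL and 9.17, 8.95 and 9.05 with it. Every oxLDL array lay above every unstimulated array, and the highest level was that of WT oxLDL replicate 2.

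Its rise in WT was 3.36-fold, with group means of 7.59 ± 0.27 and 9.34 ± 0.53 (log2, SD, n = 3 arrays each). The log2 change was 1.75 (SE 0.21, limma adjusted p = 5.70e-04, and 0.00129 with no filter). In KO it rose 2.84-fold, from 7.55 ± 0.03 to 9.06 ± 0.11, with a log2 change of 1.51 (SE 0.21, limma adjusted p = 0.00461, and 0.00912 with no filter). Only 4 of the 74007 probe sets had a larger rise in WT and 5 in KO. The 6 WT arrays alone gave an adjusted p of 0.0292 in limma with the filter, where 0.136% of probe sets were called higher, and 0.0802 without it. The 6 KO arrays alone gave 9.93e-08 with the filter, where 14.1% were called higher, and 1.22e-05 without it, where 6.41% were.

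Gclm encodes the modifier subunit of glutamate-cysteine ligase, the enzyme of the rate-limiting step of glutathione synthesis. Its log2 level was 10.38, 9.69 and 9.85 on the unstimulated WT arrays and 11.63, 11.67 and 11.57 with oxLDL. KO arrays read 10.29, 10.19 and 10.10 without oxLDL and 12.05, 11.84 and 11.91 with it. The stimulus groups did not overlap, and the 3 KO oxLDL arrays were the highest of all 12.

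In WT, Gclm went from 9.97 ± 0.36 to 11.62 ± 0.05 (SD, n = 3 arrays each), a 3.13-fold rise and a log2 change of 1.65 (SE 0.15, limma adjusted p = 2.32e-04). In KO it rose 3.34-fold, from 10.19 ± 0.10 to 11.93 ± 0.10, a log2 change of 1.74 (SE 0.15, limma adjusted p = 5.56e-04). In KO only 1 probe set of 74007 had a larger rise, ENSMUST00000149983, whose values followed those of Gclm within 0.0977 on every array. In WT 7 did. Among the 24 alternatives run for Gclm in each genotype, all kept its adjusted p under 0.05, with the highest at 0.0217 in WT and 0.00849 in KO. The 0.0217 came from the 6 WT arrays alone, and with no filter as well these gave 0.0703, which did not pass. The 6 KO arrays alone gave 9.93e-08.

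Gclc encodes the catalytic subunit of the same enzyme. Its log2 level was 9.73, 9.69 and 9.47 on the unstimulated WT arrays and 10.32, 10.56 and 10.02 with oxLDL. In KO it was 9.50, 9.38 and 9.39 without oxLDL and 10.07, 9.97 and 10.05 with it. All oxLDL arrays lay above all unstimulated arrays, with KO oxLDL replicate 2 the lowest of them.

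Gclc went from 9.63 ± 0.14 to 10.30 ± 0.27 in WT (SD, n = 3 arrays each), a 1.59-fold rise and a log2 change of 0.67 (SE 0.13, limma adjusted p = 0.00798). The 6 WT arrays alone did not call it (adjusted p = 0.175), nor did array weights estimated per genotype (0.0858). In KO it rose 1.53-fold, from 9.42 ± 0.07 to 10.03 ± 0.05, a log2 change of 0.61 (SE 0.13, limma adjusted p = 0.0389). That call was lost with no filter (0.0719), with the filter at the 25th percentile (0.0536), without unstimulated WT replicate 2 (0.0503), without WT oxLDL replicate 1 (0.0622) and without any 1 of the 6 KO arrays (0.138 to 0.192). With the 6 KO arrays alone it was 1.14e-05.

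The subunits of the ligase thus changed by unequal amounts. The log2 change of Gclm exceeded that of Gclc by 0.98 in WT and by 1.13 in KO. On single arrays, the log2 value of Gclm minus that of Gclc lay between 0.01 and 0.64 in unstimulated WT and between 1.11 and 1.54 in WT with oxLDL. In KO it lay between 0.71 and 0.81 without oxLDL and between 1.86 and 1.98 with it, above the WT arrays of the same stimulus in both cases. These differences were looked at after the values had been seen and are given without a test. Among single probe sets, the KO arrays lay wholly above the WT arrays for 16.1% without oxLDL and 16.7% with it. They lay wholly below for 17.2% and 12.8%. The share for differences between pairs of probe sets was not computed.

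Nqo1 encodes a quinone reductase that turns quinones into hydroquinones and is widely used as a readout of Nrf2. It was a dim transcript, above the array median on only 2 arrays, both of KO with oxLDL. Its log2 level was 7.73, 7.63 and 7.59 on the unstimulated WT arrays and 8.41, 8.53 and 8.04 with oxLDL. In KO it was 7.87, 7.85 and 7.80 without oxLDL and 8.71, 8.49 and 8.87 with it. Again all oxLDL arrays lay above all unstimulated ones.

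In WT the mean went from 7.65 ± 0.07 to 8.33 ± 0.26 (SD, n = 3 arrays each), a 1.60-fold rise and a log2 change of 0.68 (SE 0.12, limma adjusted p = 0.00862 over all probe sets). In KO it rose 1.81-fold, from 7.84 ± 0.03 to 8.69 ± 0.19, a log2 change of 0.85 (SE 0.12, limma adjusted p = 0.00982). The WT call was lost with the 6 WT arrays alone (0.117) and with array weights per genotype (0.182). The KO call was lost without any 1 of the 3 unstimulated KO arrays or without KO oxLDL replicate 1 or 3 (0.0559 to 0.0694), and with the 6 KO arrays alone it was 4.05e-04, in a fit that called 6.41% of all probe sets higher.

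Hmox1 encodes heme oxygenase 1, which breaks heme down to biliverdin, iron and carbon monoxide. Its log2 level was 12.76, 12.82 and 11.98 on the unstimulated WT arrays and 12.75, 13.58 and 12.88 with oxLDL, so the WT groups overlapped. In KO it was 12.07, 12.19 and 12.15 without oxLDL and 13.01, 12.89 and 13.01 with it, with no overlap. Unstimulated WT replicate 3 was closest to the unstimulated KO arrays, while the other unstimulated WT arrays were closer to the KO arrays with oxLDL.

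The WT means were 12.52 ± 0.47 and 13.07 ± 0.44 (log2, SD, n = 3 arrays each), a log2 difference of 0.55 that did not pass (SE 0.23, 95% interval 0.06 to 1.04, limma adjusted p = 0.186). The KO means were 12.13 ± 0.06 and 12.97 ± 0.07, a log2 difference of 0.83 or 1.78-fold, which the fit over 12 arrays did not call either (SE 0.23, limma adjusted p = 0.114). The 6 KO arrays alone called it, with an SE of 0.06 and an adjusted p of 4.17e-06, in a fit that called 14.1% of probe sets higher. In the 12-array fit it was also called after quantile normalization, in KO (0.0203) and in WT (0.0497), and in KO without unstimulated WT replicate 3 (0.0376), without WT oxLDL replicate 2 (0.0373) and without WT oxLDL replicate 3 (0.0477). Leaving out unstimulated WT replicate 1 and WT oxLDL replicate 3 together gave 0.0470 in WT, at a log2 change of 0.76, and 0.0223 in KO. These calls after normalization or with arrays left out were made with the filter. With no filter, only that in KO after quantile normalization remained among them. In KO, array weights per genotype called Hmox1 with the filter (limma adjusted p = 6.20e-07) and without it. They called 15.0% of tested and 5.46% of all probe sets higher. In WT they did not call it (0.448 with the filter). Array weights, in a fit that did not converge, called it in KO (4.39e-07, where 23.5% were called higher) but not in WT (0.174). With the filter, quantile normalization called 8.24% of tested probe sets higher in WT and 1.93% in KO. Leaving out both WT arrays called 13.9% higher in WT and 4.03% in KO. In KO, 0.634% were called higher without unstimulated WT replicate 3, 0.916% without WT oxLDL replicate 2 and 2.21% without WT oxLDL replicate 3. Hmox1 had an SD within groups of 0.46 in WT and 0.07 in KO, a ratio of 6.87, against a median ratio of 3.62 over the tested probe sets.

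**Figure D2:**
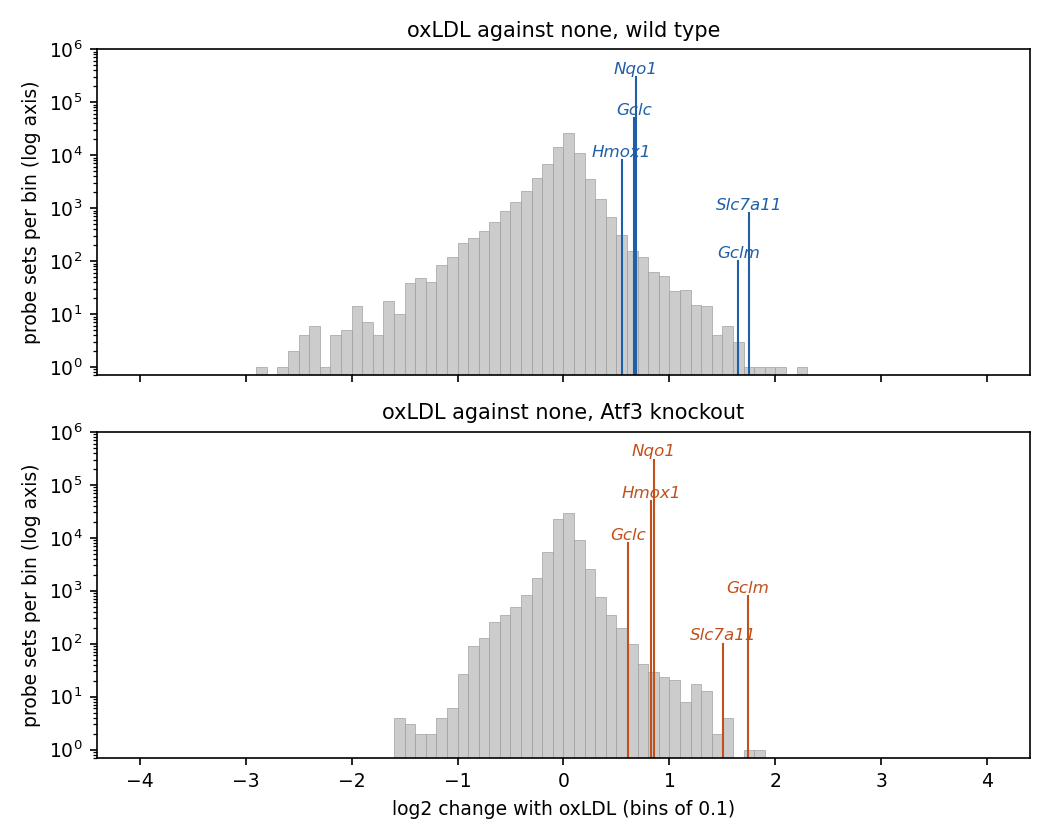
Number of probe sets (y axis, log scale) by log2 change with oxLDL (x axis, bins of 0.1) for all 74007 probe sets, in WT above and KO below, with the 5 transcripts as labelled lines. Gclm and Slc7a11 stand at the upper end of both distributions, at 1.65 and 1.75 in WT and 1.74 and 1.51 in KO.

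The mean of the WT and KO responses, computed in the same fit after the single responses were known, uses all 12 arrays for each transcript. With no filter, 5 of 5 passed as higher, where 1.87% of probe sets did. Hmox1 was 1.61-fold higher with oxLDL by this measure, with a log2 change of 0.69 (SE 0.16, limma adjusted p = 0.0144 with the filter and 0.0254 without). Nqo1 was 1.70-fold higher, with an adjusted p of 3.13e-04 with no filter. Except for Hmox1, every oxLDL array of either genotype lay above every unstimulated array, which held for 1.05% of all probe sets.

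Whether the response depended on Atf3 was tested by the interaction, the KO response minus the WT response. None of the 5 passed in limma, with an adjusted p of 1.00 for each, none had an unadjusted p under 0.05, and 1 of 39620 probe sets, 0.00252%, passed in all (0.00135% with no filter). The difference was 0.09 on the log2 scale for Gclm (95% interval -0.37 to 0.56) and -0.06 for Gclc (-0.46 to 0.34). For Slc7a11 it was -0.24 (-0.87 to 0.39), for Hmox1 0.28 (-0.41 to 0.97) and for Nqo1, with no filter, 0.18 (-0.19 to 0.55). Each interval includes differences in both directions, so the genotypes were not shown to respond alike. The sign of the difference turned for Gclm, Gclc, Slc7a11 and Nqo1 when WT arrays were left out.

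**Figure D3:**
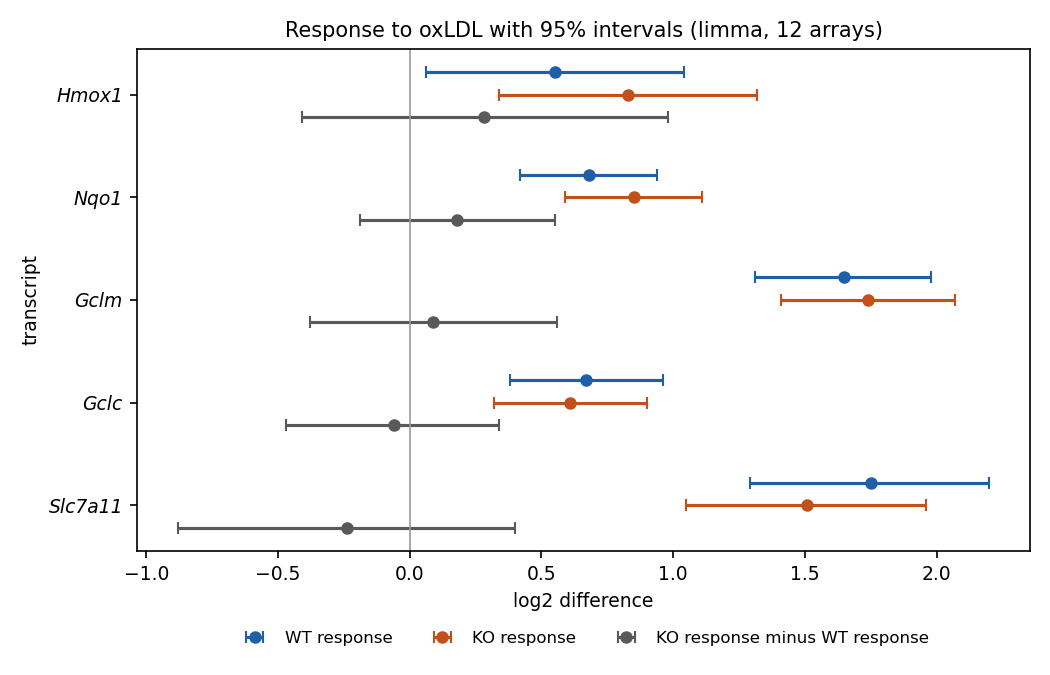
Log2 response to oxLDL in WT and in KO and the difference of the responses (x axis) for each transcript (y axis), as points with 95% intervals from the limma fit over 12 arrays with no filter. The response intervals of all 5 lie above 0, and the intervals of the difference all include 0.

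Between the genotypes, none of the 4 transcripts tested with the filter passed. Without oxLDL 16.8% of tested probe sets did, and with oxLDL 28.8% did. With no filter, none of the 5 passed in either state, against 7.75% and 15.1% of probe sets. Before adjustment, limma's p was under 0.05 for 0 of the 5 without oxLDL and for 1 of them, Nqo1, with it. Array weights, in a fit that did not converge and gave most weight to WT oxLDL replicate 1, called 4 of 4 with oxLDL, where they called 84.0% of tested probe sets. The 6 arrays of a comparison alone called 0 of 4 without oxLDL, where they called 24.9% of tested probe sets, and 0 of 4 with it, where they called 18.9%. The lowest adjusted p in these fits was 0.145 without oxLDL, for Gclc, and 0.0703 with it, for Gclm. With no filter they gave 0.0574 and 0.219 for Nqo1, where 10.7% and 8.65% of all probe sets were called. Gclm and Nqo1 had the higher mean in KO in both states, and Hmox1, Gclc and Slc7a11 the lower.

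For Nqo1 the log2 difference, KO minus WT, was 0.19 without oxLDL (95% interval -0.08 to 0.45) and 0.36 with it (0.10 to 0.62, limma adjusted p = 0.0643). Without oxLDL the 3 KO arrays lay above the 3 WT arrays, as they did for 16.1% of all probe sets. With oxLDL the groups overlapped, since KO replicate 2 at 8.49 lay below WT replicate 2 at 8.53. The comparison with oxLDL was called without WT oxLDL replicate 2 (limma adjusted p = 0.0218, where 18.2% of all probe sets were called). It was also called without KO oxLDL replicate 2 (0.0347, 11.0%), after quantile normalization (0.0412, 24.1%) and after centring on array medians (0.0402, 19.9%). The mean of both differences was 0.27, or 1.21-fold (SE 0.08, limma adjusted p = 0.0355), in a comparison added later that called 13.7% of probe sets higher in KO.

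For Gclm the differences were 0.22 (95% interval -0.11 to 0.55) without oxLDL and 0.31 (-0.02 to 0.64, limma adjusted p = 0.142) with it. With oxLDL the KO arrays, at 11.84 to 12.05, lay above the WT arrays, at 11.57 to 11.67, as was the case for 16.7% of all probe sets. Without unstimulated WT replicate 1, whose level of 10.38 was the highest of the unstimulated arrays, the difference without oxLDL was 0.42 (limma adjusted p = 0.0149), and that with oxLDL passed at an unaltered 0.31 (0.0269). That fit called 22.4% of tested probe sets without oxLDL and 31.0% with it.

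Gclc had differences of -0.21 (95% interval -0.50 to 0.07) and -0.27 (-0.56 to 0.01, limma adjusted p = 0.138). With the filter, quantile normalization called it lower in KO without oxLDL (0.0294, where 30.9% of tested probe sets were called) and with it (0.00202, 45.3%). Centring on array medians called it with oxLDL (0.0309, 38.0%). With no filter, only the call with oxLDL after quantile normalization remained among these. Slc7a11 had differences of -0.04 (-0.49 to 0.41) and -0.28 (-0.73 to 0.17, limma adjusted p = 0.329). Without WT oxLDL replicate 3, both were called lower in KO with oxLDL, Gclc by -0.41 (0.00600) and Slc7a11 by -0.55 (0.0105), in a fit that called 49.9% of tested probe sets. Hmox1 had differences of -0.39 (-0.87 to 0.10) and -0.10 (-0.59 to 0.39, limma adjusted p = 0.761), and the latter turned to 0.15 without WT oxLDL replicate 2.

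**Figure D4:**
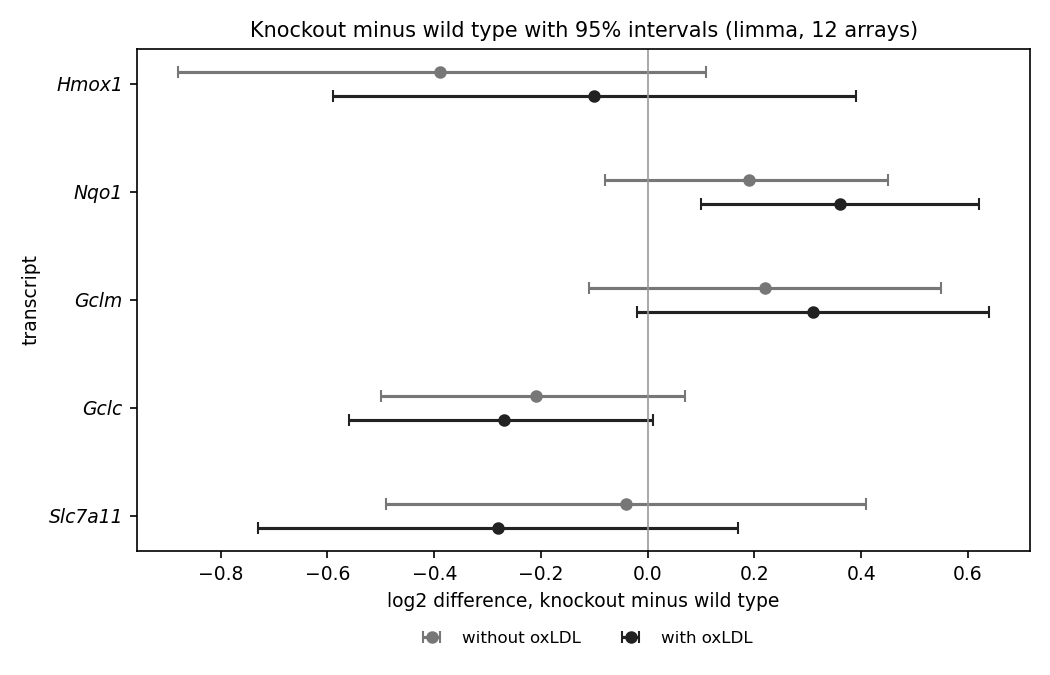
Log2 difference between the genotypes, KO minus WT (x axis), for each transcript (y axis) without and with oxLDL, as points with 95% intervals from the limma fit over 12 arrays with no filter. All intervals include 0 except that of Nqo1 with oxLDL, 0.10 to 0.62.

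On some arrays most of the 5 transcripts lay on the same side of their groups. WT oxLDL replicate 2 was the highest of its group for 5 of 5, and it was so for 65.0% of tested probe sets. WT oxLDL replicate 3 was the lowest for 4 of 5, the exception being Hmox1, and for 77.6% of probe sets. KO oxLDL replicate 2 was the lowest for 5 of 5, against 65.5% of probe sets. Unstimulated WT replicate 1, in contrast, was the highest of its group for 4 of 5, against 36.2% of probe sets. Unstimulated WT replicate 3 was the lowest of its group for 4 of 5, against 54.0% of probe sets. KO oxLDL replicate 1 was the highest of its group for 4 of 5, against 37.8%. Unstimulated KO replicate 1 was the highest of its group for 3 and the lowest for 2. The part of these array-wide shifts in the values of the 5 transcripts was not tested.

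**Figure D5:**
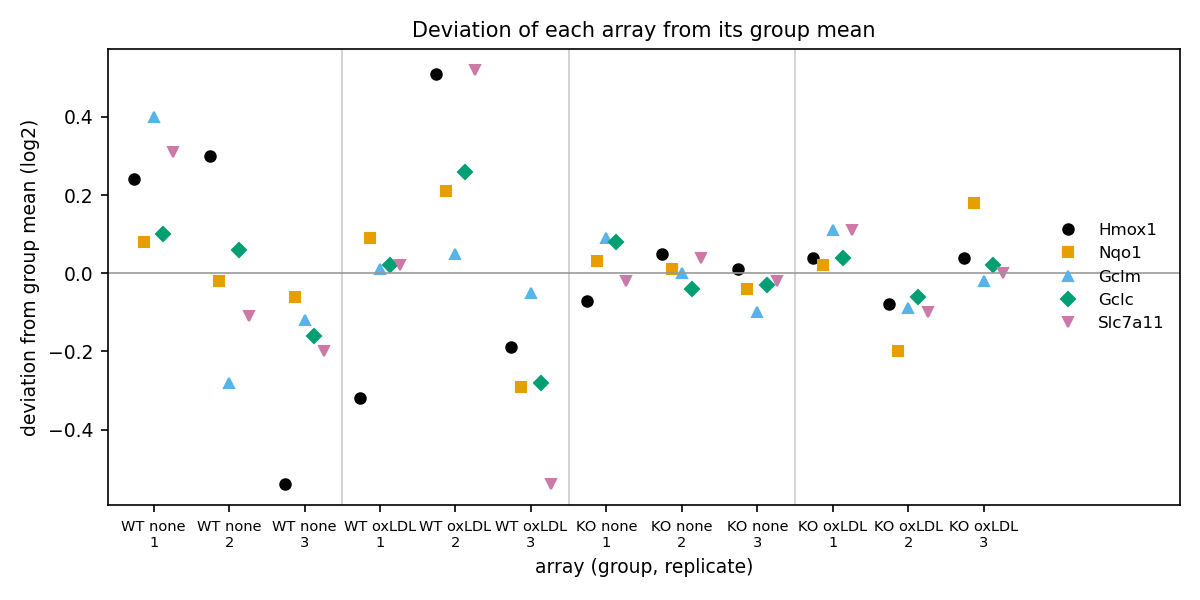
Deviation of each array from its group mean (y axis, log2) for the 5 transcripts, by array (x axis). The WT arrays scatter more widely than the KO arrays, with deviations of Hmox1 from -0.54 to 0.51 in WT and from -0.08 to 0.05 in KO.

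Some other probe sets had nearly the same profile. An ID was said to follow a member where its centred values stayed within 0.15 of it on every array, which held for 1 ID for Hmox1, 1 for Gclm, 5 for Gclc and 0 for Nqo1 and Slc7a11. Following does not show that an ID reads the same gene. Beyond these, likeness was measured by Pearson r over the 12 arrays, among the 39620 tested probe sets only. The profile most like that of Slc7a11 was that of ENSMUST00000142932, with an r of 0.998. The closest to Gclm was ENSMUST00000111432, with 0.986. The highest values for the others were 0.987 for Gclc, 0.967 for Hmox1 and 0.966 for Nqo1. No gene name is given to the IDs.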

How the data were processed

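The values are log2 expression levels that the authors deposited for transcript-level probe sets, per the labels. The submitters' processing notes list PLIER and Affymetrix Power Tools, each without a version. How background and arrays were normalized, which annotation was used and when arrays were run is not stated in those sources.

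The 12 arrays fell into 4 groups of 3 by genotype and stimulus. The members and lists were chosen with earlier results of these data known. limma 3.58.1 in R 4.3.3 was fitted to all 12 arrays with a mean per group and an intensity trend, and 5 contrasts were adjusted by Benjamini-Hochberg over all tested probe sets with a threshold of 0.05. Tested were the 39620 probe sets, 53.5%, above the array median on at least 3 arrays. Each adjusted p is from limma. A fold change is the antilog of the log2 difference. The fit was tested on simulated data with the same spread in all groups and no array-wide shifts. That simulation cannot show how the fit behaves with the wider spread of the WT arrays or with such shifts. The number of arrays limits the precision. With 3 against 3 arrays an exact permutation test cannot go below p = 0.1, so none was used. The labels describe separate mice, but a shared culture or processing day is not recorded, so each p reflects how far these samples spread, which may be technical.

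Named were the 5 members, the IDs following them and the most alike profiles. Lists of other Nrf2 targets, Nrf2 regulators, glutathione, heme and iron genes and cell type markers could not be matched to IDs and were not analysed here. Promoters came from RefSeq, build GRCm38.p6, cut to the 250 bases before the start. Alternatives were a filter at the 25th percentile or none, quantile normalization, centring, 16 added to the unlogged values, other priors, array weights, a replicate block, only the groups compared and arrays left out. Combining no filter with these, and the averaged contrasts, were chosen after seeing the data.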

Additional observations from a re-analysis of the deposited data

How the results depend on the processing

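The rise of Gclm passed under each of the 24 alternatives that changed 1 choice, with log2 changes of 1.51 to 1.88 in WT and 1.68 to 1.79 in KO, but with no filter and the 6 WT arrays alone neither it (adjusted p = 0.0703) nor the rise of Slc7a11 (0.0802) passed in WT. The number of transcripts called with oxLDL in WT was 3 of 4 tested, where 7.18% of tested probe sets were called. With array weights per genotype it was 2, with the filter (1.90%) or without it (1.23%). It was 0 of 5 with no filter and only the groups compared, where 0.0203% of all probe sets were called. In KO it was 3 of 4 (1.52%), and leaving out 1 array, with or without the filter, gave 1 to 4 (0.0365% to 5.34%). It was 5 of 5 with no filter together with quantile normalization, array weights, array weights per genotype or only the groups compared, where 2.04%, 14.3%, 10.3% and 11.9% of all probe sets were called. For KO against WT the count was 0 in both states. Without oxLDL it was 1 after quantile normalization (30.9% of tested probe sets called) and 0 when this was combined with no filter (14.9% of all). It was 1 without unstimulated WT replicate 1 and WT oxLDL replicate 3 together (47.3%). Leaving out 1 array, with or without the filter, gave 0 to 1 (2.31% to 34.2%). With oxLDL it was 1 after quantile normalization (45.3% of tested probe sets called) and 2 when this was combined with no filter (24.1% of all). It was 1 after centring on array medians with the filter (38.0%) or without it (19.9%). It was 4 with array weights (84.0% of tested probe sets called) and 5 with these and no filter (67.7%). Without both WT arrays it was 3 (56.3%). With 1 array left out, with or without the filter, it was 0 to 2 (8.62% to 49.9%). The interaction gave 0 of the members under all alternatives run. A longer antioxidant response element, with a further A at its end, matched 0 of the 3 promoters where the shorter one matched 1. The sign turned for Slc7a11 between the unstimulated genotypes, to 0.11 without unstimulated WT replicate 1, alone or with WT oxLDL replicate 3, and for Hmox1 between the genotypes with oxLDL, to 0.24 with array weights and 0.15 without WT oxLDL replicate 2. With 1 array left out these ranged from -0.14 to 0.11 and from -0.26 to 0.15. In the interaction it turned for Gclm, to -0.11 without unstimulated WT replicate 1 and -0.14 without both WT arrays, for Nqo1, to -0.01 without both, for Gclc, to 0.02 without unstimulated WT replicate 3 and 0.07 without WT oxLDL replicate 2, and for Slc7a11, to 0.02 without the latter. With 1 array left out the interaction ranged from -0.11 to 0.23 for Gclm, from -0.20 to 0.07 for Gclc and from -0.51 to 0.02 for Slc7a11. None of these values was called except that with array weights, a fit that did not converge, and the cause was not tested. The number of all probe sets called ranged, over the alternatives that changed 1 choice, from 277 to 9835 around 2844 for oxLDL in WT, from 106 to 14261 around 604 in KO, from 2797 to 18734 around 6640 and from 7235 to 33266 around 11427 for genotype without and with oxLDL, and from 1 to 1406 around 1 for the interaction. With those combined with no filter as well it ranged from 15 to 14945, 27 to 14261, 1711 to 19002, 6381 to 50099 and 1 to 1434. With the replicate number as a block, the counts of members called stayed at 3, 3, 0, 0 and 0 for the 5 contrasts. Same-numbered arrays of the groups compared deviated with correlations of -0.31 to 0.51. With 3 arrays a group and array-wide shifts among them, these values cannot decide whether the numbers pair the samples.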
